A study of Homo sapiens with 6 samples.

Results

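SKP1, SKP2, CKS1B, CKS2, CUL1, RBX1, FBXW7, BTRC, FBXO5 and CCNF encode the core, several receptors and the accessory subunits of SCF (SKP1, cullin and F-box protein) ubiquitin ligases. They were chosen by gene symbol, with earlier results of these data known. All 10 were found among the 58825 gene identifiers of the count table. RNA-seq libraries were made from SKOV3, an established human ovarian cancer cell line, after transfection with a negative control siRNA (NC, n = 3) or with an siRNA against EIF5A2 (si-EIF5A2, n = 3), 48 h before RNA isolation. EIF5A2 encodes a translation factor related to EIF5A. Both groups therefore carried an siRNA, no untransfected cells were analysed here, and the knockdown rests on 1 cell line and 1 siRNA. Values are given as CPM (a gene's counts relative to its library's total, scaled with TMM factors), and log2 fold changes are si-EIF5A2 minus NC.

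An SCF ligase is built on the scaffold CUL1, which holds the RING protein RBX1 at one end and the adaptor SKP1 at the other. SKP1 binds one of many F-box proteins, each of which brings its own substrates to the ubiquitin-conjugating enzyme held by RBX1, and attachment of the ubiquitin-like protein NEDD8 to CUL1 switches the ligase on. SKP2, together with the small subunit CKS1B, is best known for directing the cyclin-dependent kinase inhibitor p27 (CDKN1B) to degradation, whereas FBXW7, BTRC and CCNF (cyclin F) serve other substrates and FBXO5 (EMI1) inhibits a different ligase, the anaphase-promoting complex (APC/C). These functions belong to the proteins, and only RNA was measured here.

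EIF5A2 itself was at 27.8, 29.7 and 29.9 CPM in the NC libraries and at 2.76, 4.04 and 4.27 CPM in the si-EIF5A2 libraries. The groups did not overlap, and the siRNA libraries held 12.7% of the NC mean (log2 fold change -2.98, SE 0.18, edgeR quasi-likelihood test with Benjamini-Hochberg adjusted p = 1.6e-05). The libraries held 46900204 to 74142267 counts each, in which 1 fragment was worth about 3.72 counts. Of 8 markers of SKOV3 and ovarian epithelial cells, 7 were high enough to be tested. Among them was ERBB2, which SKOV3 is known to carry in extra copies (CPM of 45.9 ± 2.30 in NC and 45.4 ± 2.98 in si-EIF5A2, SD, n = 3). Its NC mean lay below those of KRT8 (608 CPM) and PAX8 (106 CPM), and this level does not by itself show extra copies. EPCAM averaged 1.55 CPM in NC, KRT19 3.22 and MUC1 0.066. Gene copies were not measured here, and the identity of the cells was not tested. The summed level of these 8 markers was 1505 to 1672 CPM in NC and 955 to 1167 CPM in si-EIF5A2, with KRT8 and PAX8 among the 3 that fell. Summed over their lists, 5 fibroblast markers reached 3.15 CPM at most, the leukocyte markers 0.155 CPM with PTPRC and CD3E at 0, and 4 endothelial markers 2.40 CPM.

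Across the 10 genes, 7 were called (a fold change above 1.5 with an adjusted p below 0.05), against 24.6% of the 16208 genes tested. CKS1B, CKS2, SKP2, BTRC, FBXO5 and CCNF fell, and FBXW7 rose, against 13.6% of all genes called lower and 11.1% called higher. The core genes SKP1, CUL1 and RBX1 did not pass the test. In the same 7 genes the CPM ranges of the groups did not overlap, which held for 51.2% of all genes tested. With a fold change over 2 or under 0.5 and an unadjusted p below 0.05 required instead, SKP2 (fold 0.503) and FBXW7 (fold 1.85) were not called, which left 5 of the 10, against 14.6% of all genes. The median log2 fold change was -1.24 over the 10 genes and -0.01 over all genes. In a bulk sample, fewer cells in a given phase of the cell cycle and less RNA per cell cannot be told apart.

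**Figure D1:**
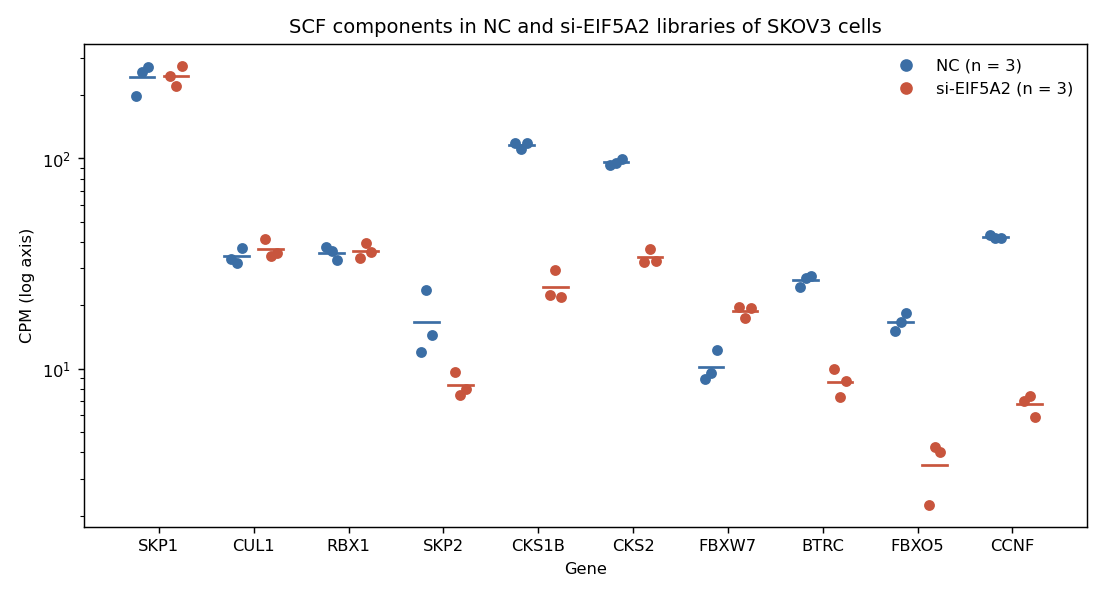
Expression of the 10 genes in each library, in CPM on a log axis. Points are the 3 NC and 3 si-EIF5A2 libraries and short lines mark the group means. The groups overlap for SKP1, CUL1 and RBX1 and are separate for the other 7 genes, of which only FBXW7 is higher in si-EIF5A2.

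The promoters of 9 of the 10 genes were present in the RefSeq table (GRCh38.p14, 250 bases before to 50 after the start), and that of BTRC was not matched. They were searched on both strands for the cell cycle homology region TTTGAA (CHR), the box CCAAT, and the E2F-type sites TTGGCGC and TTCCCGC, elements known from promoters of cell cycle genes. The 3 promoters that held a CHR match, those of CKS1B, CKS2 and CCNF, are shown. Every CHR and CCAAT match is in capitals as it reads on the gene's strand (TTCAAA and ATTGG are the reverse complements). The windows are chr1:154974431-154974730, plus strand, for CKS1B, chr9:89310945-89311244, plus strand, for CKS2 and chr16:2429197-2429496, plus strand, for CCNF.
CKS1B: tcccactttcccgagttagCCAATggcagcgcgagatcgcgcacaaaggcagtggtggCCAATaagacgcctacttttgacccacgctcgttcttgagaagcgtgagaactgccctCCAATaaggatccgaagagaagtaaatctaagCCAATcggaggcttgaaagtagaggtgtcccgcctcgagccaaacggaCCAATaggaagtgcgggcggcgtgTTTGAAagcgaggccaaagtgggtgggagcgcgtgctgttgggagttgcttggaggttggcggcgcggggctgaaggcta
CKS2: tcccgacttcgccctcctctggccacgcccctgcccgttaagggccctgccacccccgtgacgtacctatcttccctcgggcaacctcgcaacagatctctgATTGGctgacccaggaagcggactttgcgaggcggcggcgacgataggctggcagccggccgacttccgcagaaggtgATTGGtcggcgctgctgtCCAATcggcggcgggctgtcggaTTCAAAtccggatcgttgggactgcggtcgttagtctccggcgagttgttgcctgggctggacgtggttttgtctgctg
CCNF: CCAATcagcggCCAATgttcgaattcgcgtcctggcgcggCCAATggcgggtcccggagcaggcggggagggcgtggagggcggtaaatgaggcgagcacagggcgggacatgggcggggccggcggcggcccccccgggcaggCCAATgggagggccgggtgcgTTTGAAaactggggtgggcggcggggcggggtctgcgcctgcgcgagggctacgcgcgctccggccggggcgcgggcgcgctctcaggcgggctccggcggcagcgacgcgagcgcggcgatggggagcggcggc

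Counted with the base before the start as -1, the CHR match lay at -30 to -25 in CKS1B, at -29 to -24 on the opposite strand in CKS2 and at -85 to -80 in CCNF. CKS1B held 5 CCAAT matches, CKS2 held 3 and CCNF held 4. The windows of SKP1, SKP2, CUL1, RBX1, FBXW7 and FBXO5 held neither element, and of these genes SKP2 and FBXO5 were called lower too. For CUL1 the window (chr7:148697506-148697805) ended before the start of the gene in GENCODE 29, 148697914. The bases next to that start were therefore not searched. Of 35116 promoters of the same length, 15.2% held TTTGAA and 34.6% held CCAAT. The E2F-type letters TTGGCGC and TTCCCGC were in 3.04% and 6.55% of all promoters and in none of these 9. A match describes the letters of the window and not binding, which was not measured here, and no match says only that these letters are absent from it.

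SKP1, the adaptor (chromosome 5, 134148935 to 134177038, minus strand; this and the other gene positions are from GENCODE 29, GRCh38), was measured at 199, 259 and 273 CPM in NC and at 246, 221 and 276 CPM in si-EIF5A2. The lowest library was an NC library and the highest a si-EIF5A2 library, so the ranges overlapped, and the log2 fold change was 0.02 (SE 0.13, edgeR adjusted p = 0.921). CUL1, the scaffold (chromosome 7, 148697914 to 148801036, plus strand), was at 33.1, 31.7 and 37.7 CPM in NC and at 41.3, 34.2 and 35.7 CPM in si-EIF5A2. These ranges overlapped as well (log2 fold change 0.12, SE 0.11, edgeR adjusted p = 0.466). RBX1, the RING subunit (chromosome 22, 40951347 to 40973309, plus strand), was at 38.1, 36.1 and 32.8 CPM in NC and at 33.5, 39.6 and 35.8 CPM in si-EIF5A2. Its libraries were interleaved (log2 fold change 0.03, SE 0.10, edgeR adjusted p = 0.872). With any 1 library left out, the log2 fold changes stayed between -0.11 and 0.10 for SKP1, between 0.03 and 0.18 for CUL1 and between -0.04 and 0.08 for RBX1, so the sign for SKP1 and RBX1 depended on the libraries used.

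SKP2 (chromosome 5, 36151989 to 36184319, plus strand) was at 11.96, 23.67 and 14.48 CPM in NC and at 9.66, 7.53 and 8.001 CPM in si-EIF5A2. All 3 si-EIF5A2 libraries lay below all 3 NC libraries, and NC replicate 2 stood above the other two. Mean CPM was 16.7 ± 6.17 in NC and 8.39 ± 1.12 in si-EIF5A2 (SD, n = 3), or 50.3% of NC. The coefficient of variation was 36.9% among the NC libraries and 13.3% among the si-EIF5A2 libraries. SKP2 fell by 0.99 on the log2 scale (SE 0.26, edgeR adjusted p = 0.0199). Without NC replicate 2 the log2 fold change was -0.66 (adjusted p = 0.0309), and the call was lost without si-EIF5A2 replicate 2 (-0.92, adjusted p = 0.074) and without si-EIF5A2 replicate 3 (-0.97, adjusted p = 0.069). Over all alternatives the adjusted p of SKP2 lay between 0.000697 and 0.074.

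CKS1B, the accessory subunit through which SKP2 recognizes p27 (chromosome 1, 154974653 to 154979249, plus strand), was at 118, 111 and 119 CPM in NC and at 22.3, 29.6 and 21.8 CPM in si-EIF5A2. The groups were widely separated, with 21.2% of the NC mean left. CKS1B fell by 2.24 on the log2 scale (SE 0.13, edgeR adjusted p = 1.38e-05), against 0.99 for SKP2. Fragments of CKS1B can be shared with its processed pseudogenes, of which CKS1BP3 held 336, 513 and 284 counts in NC and 46, 97 and 38 counts in si-EIF5A2. When the counts of the pseudogenes were added to CKS1B, the log2 fold change was again -2.24 (edgeR adjusted p = 1.62e-05).

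CKS2, the paralog of CKS1B that also binds cyclin-dependent kinases (chromosome 9, 89311198 to 89316703, plus strand), was at 93.1, 95.2 and 98.9 CPM in NC and at 32.1, 37.2 and 32.6 CPM in si-EIF5A2. Both groups were tight, and 35.5% of the NC mean was left (log2 fold change -1.50, SE 0.09, edgeR adjusted p = 1.48e-05). Within each library, the log2 ratio of CKS2 to CKS1B was -0.28 ± 0.06 in NC and 0.48 ± 0.13 in si-EIF5A2 (SD, n = 3). The ratio was below 0 in every NC library and above 0 in every si-EIF5A2 library. It is not corrected for transcript length, and per length CKS2 was not below CKS1B in either mean. The difference was 0.75 in log2, and it stayed between 0.70 and 0.83 with any 1 library left out. Its exact permutation p was 0.10 (2-sided), the smallest that 3 libraries against 3 can give, and the adjusted p over the 9 gene pairs compared was 0.113.

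FBXW7, the receptor for cyclin E, MYC and NOTCH proteins (chromosome 4, 152320544 to 152536063, minus strand), was at 8.90, 9.55 and 12.2 CPM in NC and at 19.6, 17.5 and 19.5 CPM in si-EIF5A2. It was the only gene of the 10 that rose, with every si-EIF5A2 library above every NC library. The si-EIF5A2 mean was 185% of the NC mean (18.9 ± 1.18 against 10.2 ± 1.76 CPM, SD, n = 3). The log2 fold change was 0.89 (SE 0.15, edgeR adjusted p = 0.00228) and lay between 0.79 and 1.02 with any 1 library left out.

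BTRC encodes beta-TrCP, the receptor for beta-catenin, IkappaB and EMI1 (chromosome 10, 101354033 to 101557321, plus strand). It was at 24.6, 27.0 and 27.6 CPM in NC and at 9.95, 7.30 and 8.75 CPM in si-EIF5A2, with no overlap and 32.9% of the NC mean left. BTRC fell by 1.61 on the log2 scale (SE 0.14, edgeR adjusted p = 9.1e-05). Its paralog FBXW11, which encodes the other beta-TrCP protein, was at 74.8, 84.7 and 87.7 CPM in NC and at 117.9, 103.5 and 112.5 CPM in si-EIF5A2. FBXW11 was higher in every si-EIF5A2 library, with a log2 fold change of 0.43 (SE 0.09, edgeR adjusted p = 0.00672) that stayed under the 1.5-fold limit. The log2 ratio of BTRC to FBXW11 was -1.64 ± 0.03 in NC and -3.69 ± 0.13 in si-EIF5A2, a difference of -2.05 (exact permutation p = 0.10, adjusted p = 0.113, n = 3 per group). Both paralogs thus moved apart, and the ratio kept its sign and separate groups in all libraries.

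FBXO5, the APC/C inhibitor (chromosome 6, 152970519 to 152983579, minus strand), was at 15.1, 16.6 and 18.4 CPM in NC and at 2.25, 4.23 and 4.001 CPM in si-EIF5A2. The groups were far apart, with 20.9% of the NC mean left, and si-EIF5A2 replicate 1 was the lowest library. FBXO5 fell by 2.26 on the log2 scale (SE 0.24, edgeR adjusted p = 0.000275). CCNF, the F-box protein after which the domain is named and the receptor for RRM2 and CCP110 (chromosome 16, 2429394 to 2458854, plus strand), was at 43.3, 41.8 and 41.8 CPM in NC and at 7.04, 7.41 and 5.90 CPM in si-EIF5A2. It had the largest change of the 10 genes, with 16.0% of the NC mean left, and fell by 2.64 on the log2 scale (SE 0.12, edgeR adjusted p = 5.62e-06).

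**Figure D2:**
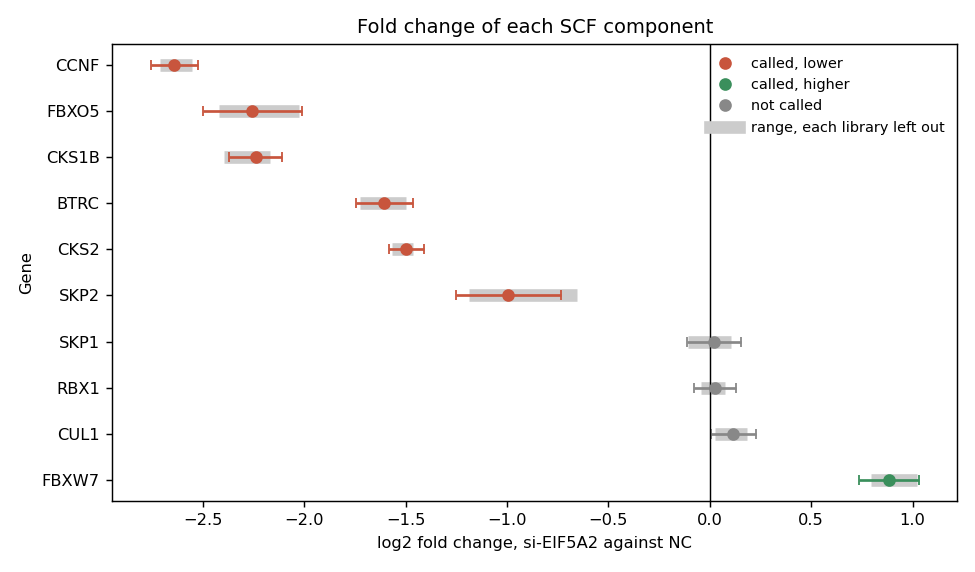
Log2 fold change (si-EIF5A2 minus NC) of the 10 genes. Points are edgeR estimates with SE, and grey bars give the range when each library is left out in turn. CCNF, FBXO5 and CKS1B lie below -2, SKP1, RBX1 and CUL1 lie close to 0 and FBXW7 lies at 0.89.

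Exons of SKP1, CUL1, FBXW7, FBXO5 and CCNF overlap another gene in the annotation. For SKP1, 171 bases are shared with a gene on the same strand, ENSG00000272772, which held 16 to 99 counts per library. The overlapping genes held at most 322 counts in any library, and the part of the fragments that could have been exchanged between genes was not tested.

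Levels of different genes were compared in CPM per kilobase of the longest principal transcript. In NC the order was CKS2 (156 ± 4.87) and CKS1B (153 ± 5.75), whose ranges overlapped, then RBX1 (30.0 ± 2.26), CUL1 (11.2 ± 1.02), CCNF (9.87 ± 0.204), FBXO5 (8.19 ± 0.808), SKP2 (4.44 ± 1.64), BTRC (4.30 ± 0.258) and FBXW7 (2.73 ± 0.470; SD, n = 3). Only the neighbours CKS2 and CKS1B, and SKP2 and BTRC, had overlapping ranges. The small CKS subunits were thus far above the F-box genes in the control cells, and FBXW7 was the lowest.

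In si-EIF5A2 the order was CKS2 (55.4 ± 4.58), CKS1B (32.4 ± 5.70), RBX1 (30.6 ± 2.59), CUL1 (12.1 ± 1.23), FBXW7 (5.04 ± 0.316), SKP2 (2.23 ± 0.298), FBXO5 (1.72 ± 0.532), CCNF (1.58 ± 0.184) and BTRC (1.41 ± 0.217) CPM per kilobase. CKS1B had come down to the range of RBX1, and each of SKP2, FBXO5, CCNF and BTRC overlapped its neighbour. By this length FBXW7 went from the lowest of these F-box genes to the highest, with no overlap with SKP2. The values and this order depend on the length used. Over all annotated exons FBXW7 has 11095 bases and SKP2 has 3837. By that length the si-EIF5A2 mean of FBXW7 lay below that of SKP2. Per kilobase of all annotated exons, the NC means were 156 for CKS2 but 49.7 for CKS1B, 11.5 for RBX1, 4.35 for FBXO5 and 0.922 for FBXW7, so that CKS1B lay below CKS2 and FBXO5 was level with SKP2 (4.35). The place of SKP1 could not be set, because its principal transcripts are 802 to 9474 bases long and give 25.7 to 304 CPM per kilobase in NC.

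**Figure D3:**
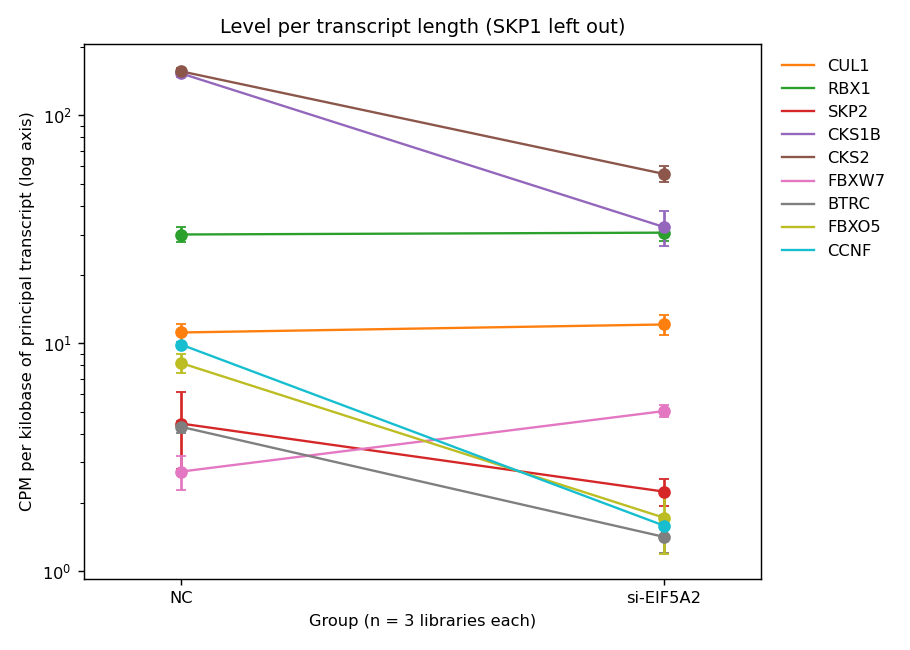
Level of the genes in CPM per kilobase of the longest principal transcript on a log axis, without SKP1. Points are means with SD over 3 libraries, and lines join the NC and si-EIF5A2 means of a gene. CKS1B and CKS2 lead in NC at 153 and 156, and FBXW7 moves from the lowest F-box gene in NC to the highest in si-EIF5A2. That last place does not hold per kilobase of all annotated exons.

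Since SCF receptors share SKP1, the log2 ratios of pairs of genes were compared within each library, which needs no scaling between libraries. SKP2 to SKP1 was -3.91 ± 0.41 in NC and -4.88 ± 0.22 in si-EIF5A2, a difference of -0.97. SKP2 to FBXW7 was 0.66 ± 0.57 in NC and -1.17 ± 0.14 in si-EIF5A2 (difference -1.83), with no overlap. SKP2 to CKS1B went the other way, from -2.86 ± 0.56 to -1.54 ± 0.39 (difference 1.32), with every si-EIF5A2 library above every NC library. SKP2 to CDKN1B, the gene of its substrate p27, was -2.10 ± 0.52 in NC and -2.98 ± 0.10 in si-EIF5A2 (difference -0.88).

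FBXO5 was compared with the activators of the ligase it inhibits. Its log2 ratio to FZR1 (CDH1) was -0.80 ± 0.24 in NC and -2.41 ± 0.58 in si-EIF5A2, and its ratio to CDC20 was -4.41 ± 0.17 and -3.03 ± 0.20. The differences, -1.61 and 1.38, had opposite signs, because CDC20 changed more than FBXO5 and FZR1 less. In these 6 pairs the groups did not overlap and the exact permutation p was 0.10 (adjusted p = 0.113 over 9 pairs, n = 3 per group, 2-sided). CUL1 to CAND1, the gene of the exchange factor of CUL1, was -1.43 ± 0.08 in NC and -1.48 ± 0.04 in si-EIF5A2. Those groups overlapped, with a difference of -0.06 (exact permutation p = 0.30, adjusted p = 0.30).

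**Figure D4:**
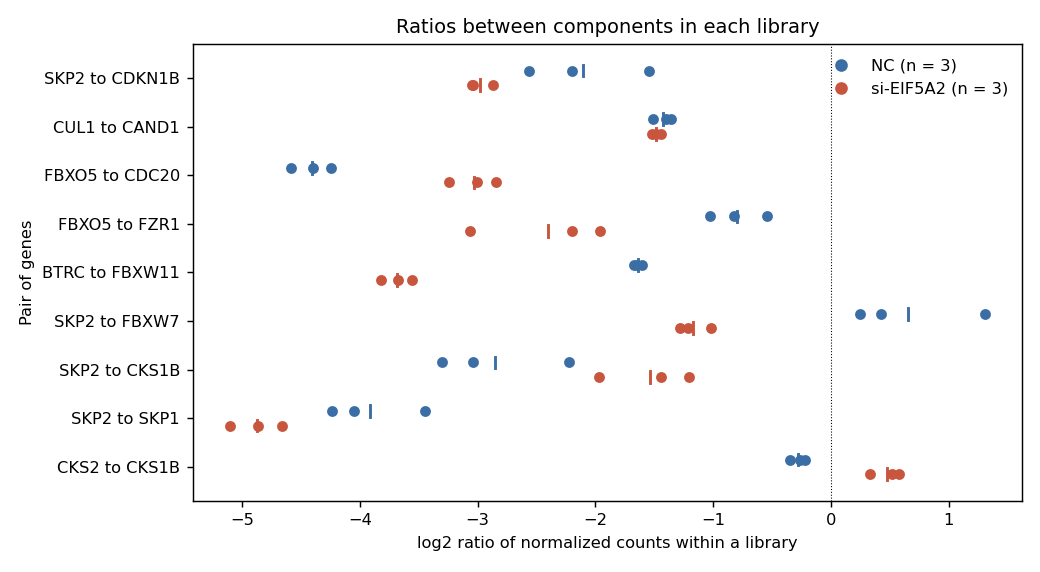
Log2 ratios of 9 pairs of genes within each library, with the 3 NC and 3 si-EIF5A2 libraries as points. The groups are separate in 8 pairs and overlap for CUL1 to CAND1, where they differ by -0.06.

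Of 64 other F-box genes, 54 could be tested and 16 were called, which is 29.6% against 24.6% of all genes. The 16 divided into 5 that fell and 11 that rose, with a median log2 fold change of 0.05 over the 54. The largest fall was that of FBXO43 (EMI2), the paralog of FBXO5 known for holding eggs in meiotic arrest, with 77, 95 and 106 counts in NC and 4, 13 and 11 counts in si-EIF5A2. At these low counts the log2 fold change was -3.05 (SE 0.56, edgeR adjusted p = 0.00365). FBXL15 fell by 1.15 (adjusted p = 0.00465) and FBXL7 by 0.99 (adjusted p = 0.00285) in log2 in the same edgeR test. The largest rises among the called genes were those of FBXO36 (1.18, adjusted p = 0.00491), the histone demethylase gene KDM2B (0.97, adjusted p = 0.00128) and FBXO16 (0.89, adjusted p = 0.00859). FBXO6, outside the rule for named genes and named after its values were seen, had a larger log2 fold change of 1.31 at 12 to 71 counts per library and was not called (adjusted p = 0.0577).

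Of 42 genes of other cullins, the NEDD8 cycle, cullin exchange and ubiquitin-conjugating enzymes, 6 were called (14.3%), 5 lower and 1 higher, with a median of 0.04. By the adjusted p alone, with no limit on the fold change, 45.2% of the 42 passed, against 36.9% of all genes, so the share lay below or above that of all genes depending on the fold limit. Among 8 other cullin and RING genes, CUL9 fell (-0.67, edgeR adjusted p = 0.0101), a call lost without NC replicate 2 or without si-EIF5A2 replicate 3. Among 24 genes of the NEDD8 cycle and cullin exchange, UBE2F, a NEDD8-conjugating enzyme (-0.74, adjusted p = 0.00495), and GPS1, a subunit of the COP9 signalosome that removes NEDD8 (-0.64, adjusted p = 0.00108, lost without NC replicate 1), fell, and DCUN1D5, a NEDD8 ligase component, rose (0.71, adjusted p = 0.000793). Of the 24 log2 fold changes, 10 were below 0 and 14 above. UBE2M (0.37, edgeR adjusted p = 0.0308), NEDD8 (0.38, adjusted p = 0.0153) and NAE1 (0.53, adjusted p = 0.00219) were higher but under the fold limit. They lie outside the rule for named genes and were named after their values were seen.

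Among 10 genes of ubiquitin-conjugating partners, UBE2R2, one of the CDC34-type enzymes that lengthen chains on SCF substrates, had a CPM of 109 ± 3.95 in NC and of 50.3 ± 1.92 in si-EIF5A2 (SD, n = 3). It fell by 1.11 on the log2 scale (SE 0.08, edgeR adjusted p = 2.6e-05). Its paralog CDC34 had a CPM of 53.3 ± 3.94 in NC and of 72.1 ± 6.42 in si-EIF5A2, with separate groups but a log2 fold change of 0.44 (adjusted p = 0.00984) under the fold limit. UBE2D3, which places the first ubiquitin, fell by 0.79 (adjusted p = 0.000392).

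SCF ligases act on the substrate proteins, whose levels were not measured here, and the following values are those of the substrates' transcripts. Of 45 substrate genes of SKP2, FBXW7, BTRC and CCNF, 44 were tested and 30 were called (68.2%, against 24.6% of all genes), 25 lower and 5 higher, with a median of -1.09. The lists were chosen with earlier results of these data known, so this share is not independent of them. CDKN1B was at 70.9, 69.0 and 66.8 CPM in NC and at 70.7, 62.4 and 66.1 CPM in si-EIF5A2. These ranges overlapped (log2 fold change -0.05, SE 0.08, edgeR adjusted p = 0.649).

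Of 10 SKP2 substrates 5 fell and 1 rose, against 13.6% of all genes called lower and 11.1% called higher. The replication licensing genes ORC1 (-3.26, edgeR adjusted p = 4.13e-05) and CDT1 (-2.77, adjusted p = 1.44e-05) and the kinase inhibitor CDKN1C (-1.38, adjusted p = 0.000585) were lower. CCNE1, which encodes cyclin E1 and is also an FBXW7 substrate, rose from 8.15 ± 0.109 to 28.1 ± 1.88 CPM (SD, n = 3), a log2 fold change of 1.78 (SE 0.11, adjusted p = 1.46e-05). Its paralog CCNE2 moved the other way (-2.59, adjusted p = 5.29e-05), so that the 2 cyclin E genes parted. Of 10 FBXW7 substrates tested, 4 fell and 2 rose, with AURKA (-2.04, adjusted p = 0.000232) and KLF5 (1.47, adjusted p = 0.000125) beside the cyclin E genes.

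Of 17 BTRC substrates 9 fell and 3 rose, against 13.6% of all genes called lower and 11.1% called higher. FBXO5 is itself on this list, and the checkpoint mediator CLSPN (-2.46, edgeR adjusted p = 0.000101), the Hedgehog factor GLI2 (-1.94, adjusted p = 0.0044) and the mitotic kinase activator BORA (-1.71, adjusted p = 0.000245) were lower too. Of 10 CCNF substrates 8 fell and none rose. The exonuclease EXO1 (-2.97, adjusted p = 6.21e-05), the centriole protein CCP110 (-2.21, adjusted p = 0.000875) and the spindle protein NUSAP1 (-2.15, adjusted p = 3.73e-05) were among them. E2F2 (-3.27, SE 0.88, adjusted p = 0.0225) was the least certain, with 95, 86 and 88 counts in NC and 8, 15 and 0 in si-EIF5A2, and its call was lost without any 1 of the 3 NC libraries or without si-EIF5A2 replicate 1.

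Of 18 genes of the APC/C and its partners, 8 fell and none rose (44.4%, against 24.6% of all genes called, median -0.51). They included the activators CDC20 (355 ± 7.94 to 28.3 ± 6.34 CPM, SD, n = 3, log2 fold change -3.65, edgeR adjusted p = 9.1e-06) and FZR1 (-0.68, adjusted p = 0.00288). The APC/C ubiquitin-conjugating enzymes UBE2C (-2.89, adjusted p = 4.92e-06) and UBE2S (-1.41, adjusted p = 0.00123) and the subunit ANAPC5 (-1.27, adjusted p = 1.66e-05) were lower as well.

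**Figure D5:**
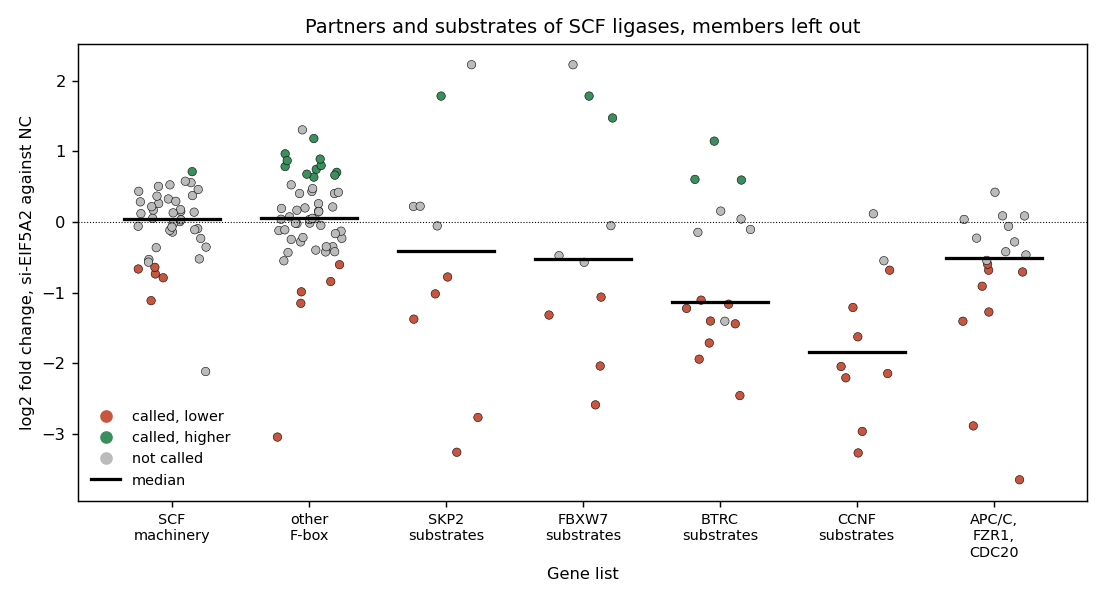
Log2 fold change (si-EIF5A2 against NC) of the genes in 7 lists, with 1 point per gene, colored by call, and the median as a black line. The 10 SCF genes themselves are left out. The medians of the machinery and F-box lists lie near 0, at 0.04 and 0.05, and that of the CCNF substrates is the lowest of the 7, at -1.84.

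Genes of S phase and of G2 and mitosis moved with these counts. Of 43 S phase genes 36 fell and none rose (83.7%, median -1.70), and of 52 G2/M genes other than CKS1B and CKS2, which stand on the commonly used list and were taken out of it, 48 fell and none rose (92.3%, median -2.45). With the 8 substrate genes that are also on the S phase or G2/M lists left out, 36 of the substrate genes remained, of which 18 fell and 5 rose (median -0.73). By list, this left out 5 of the 10 CCNF substrates, 2 of the 10 FBXW7 substrates, 1 BTRC substrate and 0 SKP2 substrates. Among the others, 4 of 5 for CCNF fell and 0 rose, and 2 of 8 for FBXW7 fell and 2 rose. For BTRC (without FBXO5) 7 of 15 fell and 3 rose, and for SKP2 5 of 10 fell and 1 rose. Some genes stand on 2 of these lists. Of all genes, 13.6% were called lower and 11.1% higher. The 36 still include genes with cell cycle roles that are not on those lists, such as ORC1, CDT1 and BORA. The APC/C list without genes of the S phase and G2/M lists kept 16, of which 6 fell (median -0.44). The part of the shift in cell cycle genes in the changes of CKS1B, CKS2, SKP2, FBXO5 and CCNF was not tested.

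Among 8840 genes that averaged 10 CPM or more, the log2 CPM of SLC35B4 (Pearson r = 0.991), LRRK1 (0.989), ADARB1 (0.982), TAFAZZIN (0.973) and WWC1 (0.972) was most like that of SKP2 over the 6 libraries. These correlations describe 6 points that share the difference between the groups and in which NC replicate 2 was the highest NC library. The log2 fold changes of these genes were -0.22, -0.54, -0.53, -0.82 and -0.21, and only TAFAZZIN was called. LRRK1 (edgeR adjusted p = 0.0121) and ADARB1 (adjusted p = 0.0169) passed the adjusted p and stayed under the 1.5-fold limit. Of the other 9 genes, BTRC had the highest correlation with SKP2 (r = 0.867), then CCNF (0.826), CKS2 (0.817), CKS1B (0.796) and FBXO5 (0.768). In that order they ranked only 399, 898, 1019, 1298 and 1551 among the 8840 genes, so many other genes were more like SKP2. FBXW7 ran the opposite way (-0.779).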

How the data were processed

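RNA of SKOV3 cells was sequenced as paired-end libraries with reads of 150 bases. Per gene, the authors obtained estimated counts from StringTie and deposited them in whole numbers and not normalized, in 1 table whose 6 columns matched the 6 libraries by name (0 columns were left over). Low values fell on multiples of about 3.72 counts, taken here as 1 fragment. The labels name Bowtie 0.12.2 with the mouse builds mm8 and mm9, which cannot describe human gene identifiers. The aligner and build behind the table, and the strand setting, are not given in the sources used here. Groups and replicate numbers came from the labels, which do not say that replicates were separate cultures, so p-values measure the spread between these samples, which may be technical. The 48 h time point is stated only in the series description.

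Counts were tested with edgeR 4.0.16 under R 4.3.3. The 6 libraries entered 1 fit with condition as the only term, after filterByExpr and TMM normalization, and the robust quasi-likelihood p-values of 16208 genes were adjusted by Benjamini-Hochberg. The test had been planned for counts, and the estimated counts needed no rounding. Calls needed a fold change above 1.5 with an adjusted p below 0.05. The SE of a log2 fold change was taken as its size over the root of its F statistic. Ratios within a library used a prior count of 2 and an exact permutation test, 2-sided, with adjustment over 9 pairs. With 0 counts, up to 3 fragments (0.151 to 0.238 CPM, depending on the library) remain possible by counting error alone. Symbols were found for 58472 of 58825 identifiers and positions for 58552 in GENCODE 29. The methods were tested on simulated data. The value of 1 leukocyte marker is not reported here.

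The 10 genes and all gene lists were chosen with earlier results of these data known. Named beside the 10 genes were EIF5A2, the genes of the 9 pairs, the 3 largest falls and rises among called F-box genes, up to 4 called genes of each other list, pseudogenes of the 10 genes and the 5 genes most like SKP2. Alternatives were DESeq2 1.42.0, RLE, upper-quartile or no normalization factors, other filters on low counts (none, or at least 10 counts in every library), counts divided by the value of 1 fragment, the replicate number as a block, a prior count of 0.5, pseudogene counts added, other thresholds and leaving out each library in turn.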

Additional observations from a re-analysis of the deposited data

How the results depend on the processing

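Of 150 recomputed values of the 10 genes, 141 kept their direction and their side of the threshold, 3 of SKP2 no longer passed it and 6 of SKP1 and RBX1 changed sign. Without a low-count filter the log2 fold changes of SKP1 and RBX1, neither of which was called, were -0.008 and -0.006. Leaving out 1 library gave -0.105 (NC replicate 1), -0.068 (si-EIF5A2 replicate 3) and up to 0.103 for SKP1, and -0.039 (NC replicate 3), -0.041 (si-EIF5A2 replicate 2) and up to 0.075 for RBX1. The study's methods state a fold change over 2 or under 0.5 with an unadjusted p below 0.05. A figure legend of the study gives a fold change above 1.5 with an adjusted p below 0.05, the rule used here for calls. Under the threshold of the methods the calls went from 7 to 5 among the 10 genes (without SKP2 and FBXW7) and from 3992 to 2370 among all genes. They went from 16 to 4 among the 54 other F-box genes tested and from 6 to 1 among the 42 machinery partners. In the APC/C list of 18 genes they went from 8 to 4. Under that threshold 14.6% of all genes were called. The share of the other F-box genes thus lay above that of all genes under the rule used here and below it under the threshold of the methods. With no limit on the fold change they were 26 for the other F-box genes (48.1%) and 19 for the machinery partners (45.2%), against 5974 of all genes (36.9%). MYC, not called at 2.23, lay between -0.053 (without si-EIF5A2 replicate 1) and 2.711. These changes follow from the thresholds, the genes tested or the libraries left out.

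When libraries were dropped singly, the calls lay between 6 and 7 for the 10 genes, 14 and 16 for the other F-box genes, 6 and 8 for the machinery partners, 28 and 31 for the substrates, 7 and 9 for the APC/C list, 34 and 36 for S phase, 47 and 48 for G2/M and 3638 and 3907 for all genes. Deviations from the group means of libraries with the same replicate number correlated at -0.024, 0.005 and -0.003, against -0.041 to 0.044 for different numbers. No effect shared by libraries of the same number was thus seen. This cannot show whether such libraries were prepared together, which the labels do not say. With the replicate number as a block, 3731 genes and 6 of the 10 were called, and SKP2 (-0.94, edgeR adjusted p = 0.0517) and E2F2 (-3.54, adjusted p = 0.0626) no longer passed. Of 72 recomputed pair ratios none changed sign. At a few fragments per si-EIF5A2 library the values of FBXO43 and E2F2 in that group are limited by depth.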

Other observations

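MYC, whose protein is a substrate of both SKP2 and FBXW7, lies outside the rule for named genes and was chosen after its values were seen. It was at 15.47, 12.73 and 15.03 CPM in the NC libraries and at 175, 13.9 and 14.0 CPM in the si-EIF5A2 libraries. One si-EIF5A2 library thus stood far above the other 5, and the log2 fold change of 2.23 (SE 1.17, edgeR adjusted p = 0.214) did not pass the test. Without that library it was -0.05 (adjusted p = 0.822).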
